A study of Rattus norvegicus with 4 samples.

Results

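The genes described here are the nuclear genes of respiratory complexes II, III, IV and V and of cytochrome c in the rat dorsal root ganglion (DRG). They were chosen by name alone, as protein-coding genes outside the mitochondrial chromosome whose names are Sdha to Sdhd, Cyc1 or Cycs or start with Uqcr, with Cox4 to Cox8 or with Atp5. This gave 51 of the 33506 genes in the deposited table, with 4 in complex II, 8 in complex III, 2 named cytochrome c, 19 in complex IV and 18 in complex V. A DRG, the ganglion of the sensory nerve root, holds sensory neuron cell bodies, satellite glia, Schwann cells and other cells. The comparison used 4 libraries, all from wild-type Wistar rats treated as neonates. The 2 vehicle-treated rats received PBS, and the 2 cisplatin-treated rats received cisplatin, a platinum-based chemotherapeutic, at 0.3 mg/kg. By the study's methods, injections were intraperitoneal on postnatal days 14 and 16 and 2 to 5 lumbar DRGs were pooled for each library at postnatal day 23, whereas the labels place isolation 16 days after treatment. The study's animals were of both sexes, and the sex of the rat behind each library is not given in the sources used here. The question is whether these genes differed after cisplatin, and whether the complexes differed from each other.

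Complexes II to V sit in the inner mitochondrial membrane. Complex II, succinate dehydrogenase, is also an enzyme of the tricarboxylic acid cycle and passes electrons to ubiquinone; it is the only one of them whose subunits are all encoded in the nucleus. Complex III passes electrons from ubiquinol to cytochrome c, complex IV passes them from cytochrome c to oxygen, and complex V, the ATP synthase, makes ATP from the proton gradient that complexes III and IV help to build. Sensory neurons support long axons and depend heavily on this supply.

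The promoters of these genes are known for sites of the activators NRF1 and NRF2 (GABP) and of YY1. RefSeq promoter windows of the GRCr8 build, 300 bases long with 250 before and 50 after the start, were matched for 40 of the 51 genes. The letters GCGCANGCG of NRF1, on either strand, were in 25% of the member genes' windows and in 6.46% of all genes' windows. The letters CCGGAAGT of NRF2 were in 12.5% against 4.20%, and AAGATGGCG of YY1 in 7.5% against 1.99%. Any of the 3 was in 42.5% against 11.5%. Over protein-coding genes alone the shares were 8.25%, 5.13%, 2.33% and, for any of the 3, 14.2%. The letters of the 3 motifs do not contain each other, but NRF1's are nearly palindromic, so that 1 stretch can match on both strands. The 120 bases before the start are shown for 7 genes, in capitals where a whole motif matches. They are Sdha, which held NRF1 matches and overlapped between the groups, Uqcr10, which held no match and was higher in both cisplatin-treated libraries, and 5 genes that held a match and were also higher in both.
Sdha (chr1:30764433-30764552, plus strand): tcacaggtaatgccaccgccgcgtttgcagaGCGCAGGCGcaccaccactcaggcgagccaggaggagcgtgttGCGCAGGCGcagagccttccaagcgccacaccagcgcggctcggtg
Uqcr10 (chr14:83791915-83792034, minus strand): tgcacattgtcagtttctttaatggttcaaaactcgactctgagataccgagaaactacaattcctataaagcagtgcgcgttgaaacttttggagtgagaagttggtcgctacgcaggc
Uqcrq (chr10:38089979-38090098, minus strand): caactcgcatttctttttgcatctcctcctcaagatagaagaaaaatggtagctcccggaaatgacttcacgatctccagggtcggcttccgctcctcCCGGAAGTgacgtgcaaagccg
Cox5b (chr9:46417717-46417836, plus strand): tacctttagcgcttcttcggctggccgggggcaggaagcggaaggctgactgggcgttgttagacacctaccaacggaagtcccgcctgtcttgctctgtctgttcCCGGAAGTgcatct
Cox8a (chr1:213833624-213833743, minus strand): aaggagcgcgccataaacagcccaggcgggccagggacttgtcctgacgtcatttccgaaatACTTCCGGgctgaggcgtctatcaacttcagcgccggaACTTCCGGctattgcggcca
Atp5g2 (chr7:135678219-135678338, minus strand): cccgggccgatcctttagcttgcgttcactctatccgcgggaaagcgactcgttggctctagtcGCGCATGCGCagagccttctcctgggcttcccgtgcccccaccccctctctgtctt
Atp5o (chr11:44657484-44657603, minus strand): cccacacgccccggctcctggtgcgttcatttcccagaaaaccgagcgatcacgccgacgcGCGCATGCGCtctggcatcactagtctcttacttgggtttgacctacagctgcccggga
In Sdha, Atp5g2 and Atp5o the capitals are NRF1's letters, and in Uqcrq, Cox5b and Cox8a they are NRF2's. Sdha held a further NRF1 match across its start. Over the genes tested, those with NRF1's letters had a median log2 fold change of 0.42 (10 genes) and those without 0.44 (27 genes). The 5 genes with NRF2's letters had a median of 0.66, against 0.41 over the other 32. Genes not shown that held a match and overlapped between the groups were Atp5a1 (NRF2, log2 fold change −0.13), Atp5g3 and Atp5i (NRF1 each). Any link between the motif letters and the fold change was not tested.

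Total counts ranged from 21384801 to 25618417 per library. The genes described here took 0.916% and 0.680% of the counts in vehicle-treated libraries 1 and 2 and 1.09% and 0.898% in cisplatin-treated libraries 1 and 2. All 12 sensory neuron markers and all 8 Schwann cell markers were detected. Sensory neuron markers summed to 25233 to 32874 CPM, which are counts scaled to library size with edgeR's TMM factors, in vehicle-treated and 28908 to 40394 in cisplatin-treated libraries, and all 12 had a log2 fold change above 0, with a median of 0.35. Schwann cell markers summed to 61826 to 157085 and 48319 to 137762 CPM and all 8 were below 0, with a median of −0.36. In both groups the library numbered 2 held the higher Schwann cell sum and the lower neuron sum. None of these markers was called by edgeR or DESeq2 or had an unadjusted p under 0.05 in edgeR. The part of these markers in the values that follow was not tested, and in whole ganglia fewer cells of a type and less RNA per cell cannot be told apart. Vehicle-treated library 1 stood apart in its skeletal muscle markers, whose sum was 1075 CPM, against 185 in vehicle-treated library 2 and 238 to 374 in the cisplatin-treated libraries. Of the 8 muscle markers found, 7 were far highest in that library, and none was at 0. Pvalb, which sensory neurons also express, was not highest there, at 266 and 163 CPM in vehicle-treated and 302 and 218 CPM in cisplatin-treated libraries. Pvalb made up most of the sum in the other libraries. The sums therefore understate how far the other 7 markers stood apart in vehicle-treated library 1. Adipocyte markers summed to 10.4 CPM there and to 1.02 to 1.81 elsewhere, with Ucp1 at 0 throughout. Sums of satellite glia, macrophage, endothelial, fibroblast and red blood cell markers overlapped between the groups. Within the list of 9 fibroblast and meninges markers, DESeq2 called Ptgds higher (82.9 and 74.2 against 318 and 341 CPM) and Col1a2 lower (856 and 946 against 199 and 401 CPM).

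After cisplatin most nuclear genes of complexes III, IV and V and cytochrome c were at higher levels in both libraries than in both vehicle-treated libraries, as were 2 of the 4 genes of complex II, and no gene passed edgeR's test. Of the 51 genes, 47 had enough counts to be tested, and Cox8b, Cox8c, Cox7b2 and Cox6c1 did not. Cox6c1 and Cox7b2 had 0 counts in all libraries and Cox8c had at most 1. Of the 47, 43 had a fitted log2 fold change above 0, against 49.1% of all 14719 protein-coding genes tested. Members are mostly shorter than other genes, and shares above 0 by gene length are given below. Both cisplatin-treated libraries were above both vehicle-treated libraries in 36 members, against 20.6% of all genes, and both were below in 1, against 21.2%. Scaled by library size alone, the counts above and below were 24 and 1, against 14.9% and 25.6% of all genes. The median log2 fold change was 0.44 over the 47 members and −0.01 over all genes.

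Calls came from edgeR's quasi-likelihood test and needed both a fold change of at least 1.5 and a p under 0.05 after Benjamini-Hochberg adjustment. None of the 47 members was called, and 0.00679% of all genes were, which is 1 gene. At an unadjusted p under 0.05, 17 members were higher, against 3.74% of all genes, and 1 was lower, against 5.83%. With the offset for gene length described below, 7 members were higher and 1 was lower at that p, and the share of all genes at that setting is not given here. DESeq2 on the same counts called 1 member higher, Uqcr10, against 0.34% of all genes, and 1 lower, Atp5f1, against 0.611%. For 1 gene measured in 2 libraries a group, exact permutation (two-sided) cannot give a p below 0.333. Without vehicle-treated library 1 the median over the members was 0.57, 43 of the 47 lay above, against 35.8% of all genes, and none was called.

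**Figure D1:**
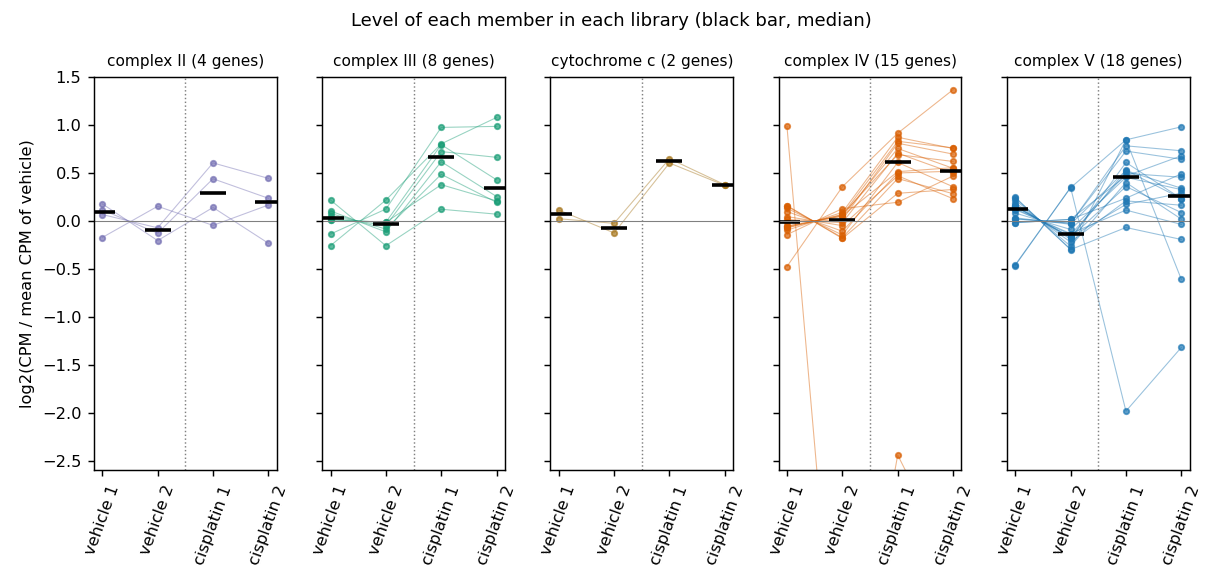
Level of each tested member in each library, as log2 of its CPM over its mean CPM in the vehicle-treated libraries, by complex. Points are genes, thin lines join the same gene and have no other meaning, and black bars are medians. In every panel the medians lie higher in both cisplatin-treated libraries, and 1 gene (Cox6a2) has points below the axis.

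Complex II showed the smallest difference. Sdhb encodes the iron-sulphur subunit and Sdha the flavoprotein subunit that oxidises succinate, and Sdhc and Sdhd anchor both in the membrane. Sdhb (ENSRNOG00000007967; chromosome 5, 159484370 to 159505064, Rnor_6.0) had 124 and 113 CPM in vehicle-treated and 180 and 161 CPM in cisplatin-treated libraries. The groups did not overlap, and the log2 fold change was 0.53 (standard error, SE, 0.19, edgeR's adjusted p = 0.509). Sdhd had 117 and 98.8 CPM in vehicle-treated and 146 and 127 CPM in cisplatin-treated libraries, also without overlap (log2 fold change 0.34, SE 0.20). Sdhc and Sdha did not separate the groups. Sdhc had 146 and 183 CPM in vehicle-treated and 159 and 185 CPM in cisplatin-treated libraries, which is a log2 fold change of 0.06 (SE 0.21). Sdha had 217 and 166 CPM against 211 and 163 CPM, a log2 fold change of −0.03 (SE 0.24). In each group the library numbered 1 was the higher for Sdha and the lower for Sdhc. Per length, Sdhb and Sdhc had mean FPKM of 144 and 143 over the 4 libraries, Sdhd 98.0 and Sdha 81.1.

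All 8 genes of complex III had a log2 fold change above 0, and 7 did not overlap between the groups. Uqcr10 (ENSRNOG00000059061; chromosome 14, 84935486 to 84937725), a small accessory subunit, had 17.1 and 20.5 CPM in vehicle-treated and 37.0 and 37.3 CPM in cisplatin-treated libraries, or 18.8 ± 2.39 and 37.2 ± 0.197 CPM (SD, n = 2 each). The cisplatin-treated libraries were nearly equal and lay well above both vehicle-treated ones, with a log2 fold change of 0.98 (SE 0.20, edgeR's adjusted p = 0.509 and DESeq2's 0.0476). Uqcrq (ENSRNOG00000048174; chromosome 10, 38779132 to 38782419), which lies near the ubiquinone site, had 80.0 and 111 CPM in vehicle-treated and 167 and 202 CPM in cisplatin-treated libraries. The log2 fold change was 0.95 (SE 0.24, edgeR's adjusted p = 0.509 and DESeq2's 0.0846). Uqcrh, the hinge protein beside cytochrome c1 and the most abundant of these genes per length at a mean FPKM of 311, had 138 and 136 CPM in vehicle-treated and 238 and 184 CPM in cisplatin-treated libraries. All 3 genes were higher in both cisplatin-treated libraries, and the log2 fold change of Uqcrh was 0.62 (SE 0.21). Uqcrb, another small subunit, stood at 0.69 (SE 0.18).

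Of the other subunits of complex III, Cyc1, cytochrome c1, had 226 and 202 CPM in vehicle-treated and 300 and 245 CPM in cisplatin-treated libraries, without overlap, and a log2 fold change of 0.35 (SE 0.21). The core proteins Uqcrc1 and Uqcrc2 had log2 fold changes of 0.45 and 0.30 and did not overlap. The Rieske iron-sulphur protein gene Uqcrfs1 was the 1 gene of the complex that overlapped, with 181 and 130 CPM in vehicle-treated and 170 and 164 CPM in cisplatin-treated libraries (log2 fold change 0.10, SE 0.23). A row outside the name rule that carries the protein name of a further small subunit, Uqcr11, had 149 and 133 CPM in vehicle-treated and 174 and 162 CPM in cisplatin-treated libraries (log2 fold change 0.25, SE 0.18). Counts of Uqcrb are uncertain, since a second protein-coding row of the same protein name held 703 and 532 counts in the vehicle group and 1098 and 1046 in the cisplatin group, beside 635 and 467 and 1030 and 915 in Uqcrb. Both rows were higher after cisplatin, and their sum had a log2 fold change of 0.68 (SE 0.17, edgeR's adjusted p = 0.510).

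Cytochrome c is the soluble protein that carries electrons from complex III to complex IV and that helps to trigger apoptosis when it leaves the mitochondrion. Cycs on chromosome 4 (ENSRNOG00000010452; 80331227 to 80333326) had 121 and 103 CPM in vehicle-treated and 170 and 145 CPM in cisplatin-treated libraries. The groups did not overlap, and the log2 fold change was 0.49 (SE 0.20, edgeR's adjusted p = 0.518). A second row named Cycs, on chromosome 18 (62476383 to 62476700), had 15.9 and 15.3 CPM against 24.5 and 20.3 CPM and a log2 fold change of 0.52 (SE 0.21). It is 318 bases long, RefSeq's GRCr8 annotation lists a cytochrome c pseudogene on that chromosome, and its reads may be those of the chromosome 4 gene. The sum of both rows gave a log2 fold change of 0.50 (SE 0.20).

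Of the 15 genes of complex IV tested, 14 had a log2 fold change above 0 and none of these 14 overlapped between the groups. The catalytic core of this enzyme is encoded in mitochondrial DNA, and the nuclear genes encode subunits around it. Cox7b (ENSRNOG00000054689; chromosome X, 77065397 to 77071676) had 63.7 and 72.4 CPM in vehicle-treated and 125 and 115 CPM in cisplatin-treated libraries, or 68.1 ± 6.20 and 120 ± 6.85 CPM (SD, n = 2 each). Cox7a2 (ENSRNOG00000042903; chromosome 8, 87209530 to 87213627) had 89.1 and 97.4 CPM in vehicle-treated and 166 and 158 CPM in cisplatin-treated libraries. In both genes the gap between the groups was several times the gap within them, with log2 fold changes of 0.82 and 0.80 (SE 0.18 each, edgeR's adjusted p = 0.509 each). Cox5b, the zinc-binding subunit, had the highest fitted value of all members, 1.16 (SE 0.33), but with libraries further apart, at 48.2 and 85.7 CPM in vehicle-treated and 126 and 173 CPM in cisplatin-treated libraries. In each group library 2 was higher for this gene.

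Cox6a1 and Cox4i1, the most abundant genes of complex IV per length with mean FPKM of 727 and 702, had smaller differences. Cox6a1 had 328 and 320 CPM in vehicle-treated and 529 and 458 CPM in cisplatin-treated libraries, which is a log2 fold change of 0.61 (SE 0.22). Cox4i1, whose protein is a regulatory subunit that binds ATP, had 511 and 407 CPM against 624 and 559 CPM, a log2 fold change of 0.37 (SE 0.25). Cox8a had 180 and 193 CPM in vehicle-treated and 315 and 273 CPM in cisplatin-treated libraries, with a log2 fold change of 0.66 (SE 0.20). All 3 genes were higher in both cisplatin-treated libraries. Cox6b1 on chromosome 1 had 140 and 154 CPM in vehicle-treated and 237 and 226 CPM in cisplatin-treated libraries (log2 fold change 0.66, SE 0.19). A row of the same name on chromosome 2, 261 bases long and listed by RefSeq's GRCr8 annotation as a pseudogene, had 20.9 and 21.2 CPM against 36.9 and 34.1 CPM (0.76, SE 0.19), and the sum of both rows gave 0.67 (SE 0.19). The other subunits, Cox7c, Cox5a and Cox6c, stood at 0.51, 0.49 and 0.31, and Cox7a2l, a factor of respiratory supercomplexes that the name rule takes in, at 0.36.

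Several subunits of complex IV have a second isoform that other tissues prefer, and the DRG libraries used the common ones. Cox4i2, the isoform of lung and of oxygen-sensing cells, took 0.458% and 0.619% of the FPKM of the COX4 pair in vehicle-treated and 0.557% and 0.639% in cisplatin-treated libraries. Its level was 3.40 and 3.66 CPM against 5.04 and 5.19 CPM, higher in both cisplatin-treated libraries at a log2 fold change of 0.54 (SE 0.28), while its share overlapped. Cox6b2, the testis isoform, had 1.56 and 1.88 CPM against 1.97 and 2.38 CPM (log2 fold change 0.34, SE 0.37).

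Of the isoforms of heart and skeletal muscle, Cox6a2 and Cox8b were high in vehicle-treated library 1 alone. A row outside the name rule that carries the protein name of the third, Cox7a1, was not, with 13 and 11 counts in the vehicle group and 26 and 10 in the cisplatin group. Cox6a2 had 127 and 1 counts in the vehicle group and 12 and 5 in the cisplatin group. It was the 1 gene of complex IV with a log2 fold change below 0, −2.90 (SE 1.52, edgeR's adjusted p = 0.564). It passed the filter on low counts through vehicle-treated library 1, at 127 counts, and cisplatin-treated library 1, at 12. Without vehicle-treated library 1 it stood at 2.65, a value set by the single count in vehicle-treated library 2. Cox8b, which was not tested, had 60 and 5 counts against 7 and 6. Muscle markers were likewise highest in vehicle-treated library 1, with Acta1 at 4645 and 127 counts in the vehicle group and 777 and 259 in the cisplatin group and Myh1 at 4208 and 75 against 315 and 85. The common isoforms of these pairs, Cox6a1 and Cox8a, had 328 and 320 CPM and 180 and 193 CPM in vehicle-treated libraries 1 and 2. Of other common isoforms there, Cox4i1 had 511 and 407 CPM and Cox6b1 on chromosome 1 had 140 and 154 CPM. The part of muscle RNA in the members was not tested.

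**Figure D2:**
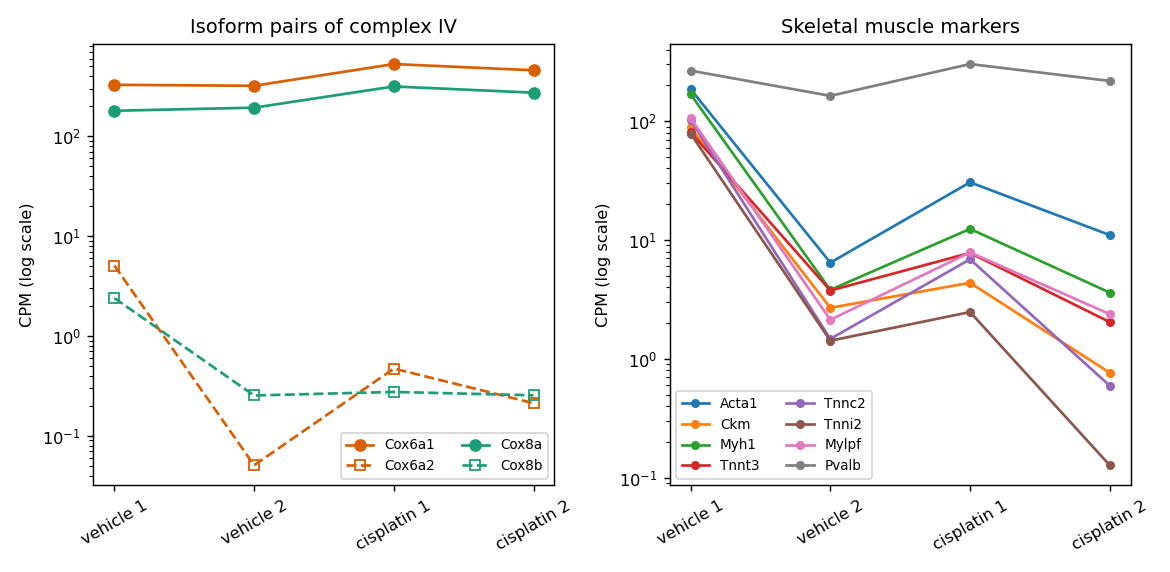
CPM on a log axis in each library for the common (filled circles) and muscle (open squares) isoforms of COX6A and COX8, left, and for 8 skeletal muscle markers, right; lines join the same gene. Cox6a2, Cox8b and all markers but Pvalb are far highest in vehicle-treated library 1, and the common isoforms are not.

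Complex V had the widest mix. Of its 18 genes, 16 had a log2 fold change above 0, 11 lay above and 1 below without overlap, and 6 overlapped. In the head, which makes ATP, the alpha and beta subunits overlapped between the groups. Atp5b, the catalytic beta subunit and the most abundant member of all per length with a mean FPKM of 747, had 1388 and 1109 CPM in vehicle-treated and 1601 and 1327 CPM in cisplatin-treated libraries. The log2 fold change was 0.23 (SE 0.33). Atp5a1, the alpha subunit, had 874 and 599 CPM against 703 and 644 CPM, and a log2 fold change of −0.13 (SE 0.30). For both, vehicle-treated library 1 was well above vehicle-treated library 2, and without library 1 they stood at 0.41 and 0.18. Of the small head subunits, Atp5e, second in the head per length with a mean FPKM of 470, had 155 and 159 CPM in vehicle-treated and 186 and 221 CPM in cisplatin-treated libraries, which is a log2 fold change of 0.37 (SE 0.19), and Atp5d stood at 0.43. The row of Atp5c1, the gamma subunit, is 7359 bases long and spans a merged gene model, so its value of 0.39 is uncertain.

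The proton-driven ring of subunit c is encoded by Atp5g1, Atp5g2 and Atp5g3, whose mature proteins are the same. Atp5g2 (ENSRNOG00000015320; chromosome 7, 144264199 to 144272578) had 71.1 and 124 CPM in vehicle-treated and 175 and 193 CPM in cisplatin-treated libraries. It was lowest in vehicle-treated library 1, and its log2 fold change of 0.92 (SE 0.30, edgeR's adjusted p = 0.509) was 0.58 without that library. Atp5g1 had 125 and 99.9 CPM against 162 and 142 CPM (0.44, SE 0.20), without overlap, and Atp5g3 had 346 and 247 CPM against 391 and 301 CPM (0.22, SE 0.27), with overlap. Together the 3 genes summed to 792 and 688 FPKM in vehicle-treated and 1074 and 946 FPKM in cisplatin-treated libraries. Atp5g2 made up 13.6% and 27.0% of that sum in vehicle-treated and 24.7% and 30.9% in cisplatin-treated libraries, so that its share overlapped although the sum did not.

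Of the subunits around the ring and in the stalk, Atp5j2 (ENSRNOG00000027049; chromosome 12, 11191812 to 11198369), subunit f, had 135 and 130 CPM in vehicle-treated and 228 and 220 CPM in cisplatin-treated libraries, or 132 ± 3.08 and 224 ± 5.64 CPM (SD, n = 2 each). The libraries of a group lay close together, and the log2 fold change was 0.76 (SE 0.18, edgeR's adjusted p = 0.509 and DESeq2's 0.0992). Atp5o, the OSCP subunit that joins stalk and head, and Atp5j, coupling factor 6, stood at 0.69 and 0.58, Atp5l, subunit g, at 0.48, Atp5h, subunit d, at 0.23 and Atp5i, subunit e, at 0.19. All but Atp5i did not overlap between the groups. By part of the enzyme, the median log2 fold change was 0.37 over the 5 head genes, 0.29 over 5 stalk rows of which 2 are Atp5f1, 0.44 over the 3 ring genes and 0.48 over subunits e, f and g. With the Atp5f1 rows summed, the 4 stalk genes had a median of 0.41. Atp5s and Atp5sl, which the name rule takes in but which are not subunits, stood at 0.04 and 0.39.

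The 1 member lower in both cisplatin-treated libraries was Atp5f1, subunit b of the stalk, and its value is uncertain. The table holds 2 rows of that name on chromosome 2, each 2063 bases long. The first (ENSRNOG00000016000; 208408890 to 208420163) had 700 and 968 counts in the vehicle group and 248 and 364 in the cisplatin group, and the second (ENSRNOG00000046299; 208566385 to 208577146) had 48 and 26 against 74 and 25. The first row was lower in both cisplatin-treated libraries, at a log2 fold change of −1.61 (SE 0.37, edgeR's adjusted p = 0.509 and DESeq2's 0.0155), and the second did not separate the groups. Their sum gave −1.46 (SE 0.32, edgeR's adjusted p = 0.510). At a mean FPKM of 12.1 the first row was far below the other stalk subunits, Atp5o, Atp5h and Atp5j at 254, 228 and 115. RefSeq's GRCr8 annotation has a single gene for this subunit on the chromosome, and how the counting treated reads that fit both rows is not given in the sources used here.

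**Figure D3:**
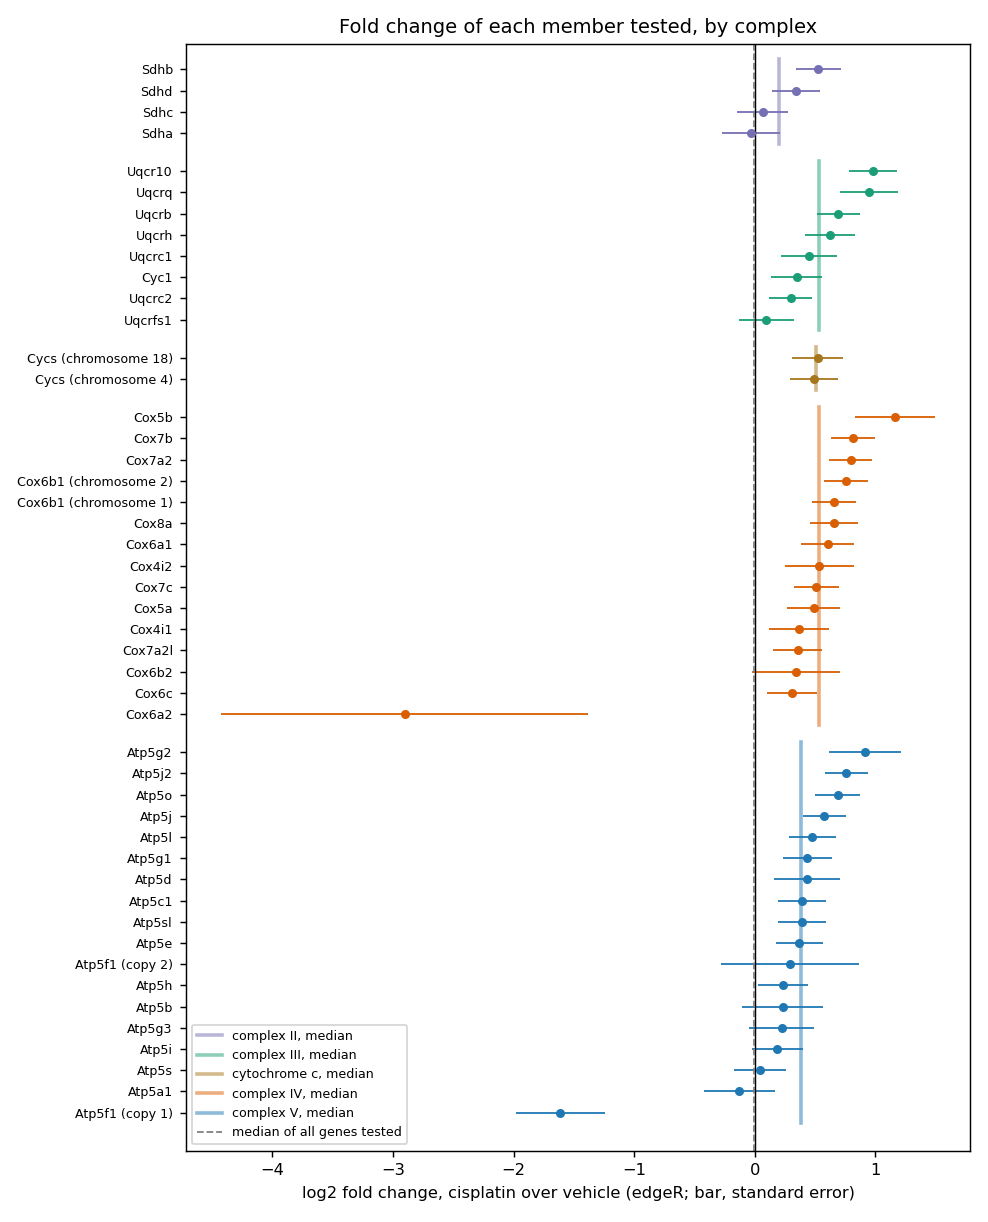
Log2 fold change, cisplatin over vehicle, of the 47 members tested, by complex and in order of size, with standard errors from edgeR. Thick lines are the median of each complex (II 0.20, III 0.54, cytochrome c 0.51, IV 0.54, V 0.38) and the dashed line is the median of all genes tested; Cox6a2 and Atp5f1 (copy 1) lie far to the left.

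Set beside each other, complexes III and IV and cytochrome c had the larger differences and complex II the smallest. The median log2 fold change was 0.20 in complex II (range −0.03 to 0.53), 0.54 in complex III (0.10 to 0.98), 0.51 in cytochrome c, 0.54 in complex IV (−2.90 to 1.16) and 0.38 in complex V (−1.61 to 0.92). Without the genes that are not subunits, complexes IV and V stood at 0.57 and 0.38. Genes without overlap and higher after cisplatin were 2 of 4 in complex II, 7 of 8 in complex III, 2 of 2 in cytochrome c, 14 of 15 in complex IV and 11 of 18 in complex V. The second rows named Cycs, Cox6b1 and Atp5f1 count here, and in the sums below, as genes of their own. With near-identical rows summed, the median was 0.50 for cytochrome c (1 gene), 0.52 for complex IV (14 genes) and 0.39 for complex V (17 genes). The genes of a complex were measured in the same 4 libraries and are not replicates of the treatment, so these differences carry no p.

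The summed level per length gave the same order at the low end. Summed over its genes, complex II had 436 and 415 FPKM in vehicle-treated and 524 and 491 FPKM in cisplatin-treated libraries, a ratio of group means of 1.19 ± 0.0678 (SD carried over from n = 2 each). Complex III had 926 and 851 against 1354 and 1174 FPKM, a ratio of 1.42 ± 0.166. Cytochrome c had 148 and 130 against 214 and 181 FPKM, a ratio of 1.42 ± 0.215. No complex overlapped between the groups. Complex IV had 3666 and 3412 against 5426 and 5065 FPKM, a ratio of 1.48 ± 0.104. Complex V had 3972 and 3364 against 4904 and 4609 FPKM, a ratio of 1.30 ± 0.162. Of the ranges of 1 SD around these ratios, only those of complexes II and IV did not overlap.

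Ratios of these sums within a library remove what scales all members alike. Complex IV over complex II was 8.41 and 8.21 in vehicle-treated and 10.4 and 10.3 in cisplatin-treated libraries, a gap between the groups far wider than that within them. Complex III over complex II was 2.12 and 2.05 against 2.58 and 2.39, also without overlap and by more than the spread within either group. Complex V over complex II was 9.11 and 8.10 against 9.36 and 9.39, a gap smaller than that between the vehicle-treated libraries. Complex IV over complex V was 0.923 and 1.01 against 1.11 and 1.10, without overlap but by a margin no wider than the gap between the vehicle-treated libraries. Complex IV over complex III was 3.96 and 4.01 against 4.01 and 4.31 and overlapped, and complex V over complex III was 4.29 and 3.95 against 3.62 and 3.92, lower in both cisplatin-treated libraries by a margin smaller than the spread within either group.

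**Figure D4:**
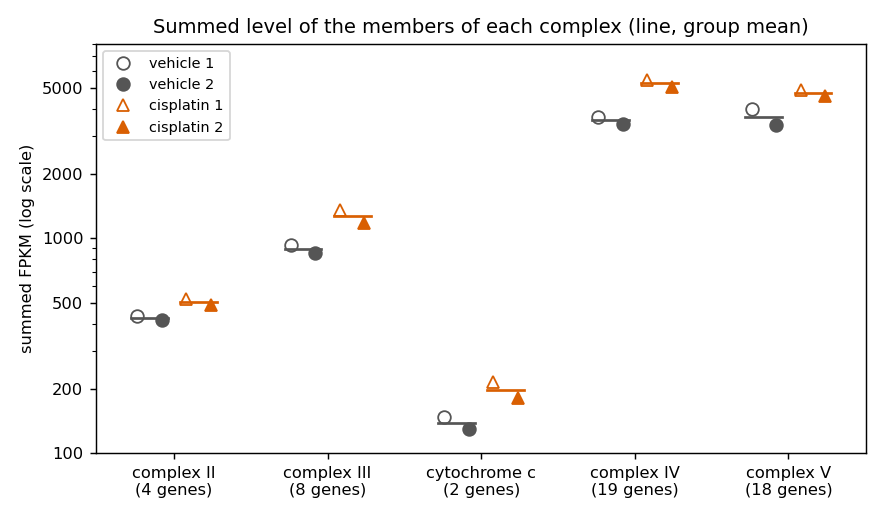
Sum of FPKM over the genes of each complex in each library, on a log axis; circles are vehicle-treated and triangles cisplatin-treated libraries, open for library 1 and filled for library 2, and lines are group means. In every complex both cisplatin-treated libraries lie above both vehicle-treated ones, with the narrowest gap in complex II (1.19 times) and the widest in complex IV (1.48 times).

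Fold change followed gene length in these libraries, and most respiratory genes are short. The median length was 794 bases over the members tested and 2371 over all genes tested, and Spearman's rho between log2 fold change and length, given as a description over genes of the same 4 libraries, was −0.36 over the 14719 genes and −0.40 over the 47 members. Among genes under 1000 bases, the 27 members had a median log2 fold change of 0.53 and the 1553 genes in all 0.28. Above 0 were 26 of these members and 72.0% of these genes in all. Among genes of 1000 bases or more, the 20 members had a median of 0.35 and the 13166 genes in all −0.03, with 17 of these members and 46.4% of these genes above 0. With a per-library offset that takes out the trend with length, the median over the members was 0.22, with 0.06 in complex II, 0.33 in complex III, 0.24 in cytochrome c, 0.30 in complex IV and 0.15 in complex V, no member was called, and 36 members were above 0 in place of 43. The median lengths were 1184 bases in complex II, 1140 in complex III, 484 in complex IV and 866 in complex V. Complexes II and III were alike in the median only, with single genes from 980 to 2277 bases in complex II and from 410 to 1824 in complex III. The cause of the trend with length was not tested.

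**Figure D5:**
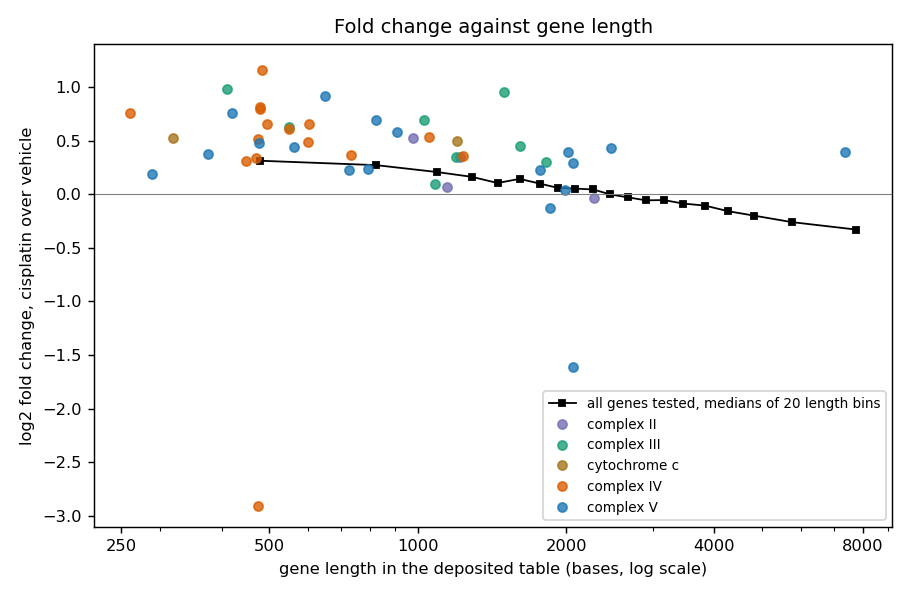
Log2 fold change against gene length in bases (log axis); coloured points are the 47 members tested and black squares are medians of all genes tested in 20 bins of equal number. The medians of all genes go from 0.31 in the shortest bin to −0.33 in the longest, and most members lie above them.

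Other genes of the pathway, from lists, were mostly on the same side, and edgeR called none of them; DESeq2 called 4 genes of the complex I list, of which 1 was Ndufa4, and 4 mitochondrially encoded partners, all higher, and none of the assembly factors, inhibitor and supercomplex factors, tricarboxylic acid cycle enzymes or regulators. Over all genes tested, 49.1% were above 0 and 20.6% lay above without overlap. At an unadjusted p under 0.05 in edgeR 3.74% of all genes were higher, and DESeq2 called 0.34% higher. The nuclear complex I subunits, which feed electrons in beside complex II, were all above 0 in the 31 tested, with 25 without overlap, 13 at an unadjusted p under 0.05 and a median log2 fold change of 0.42. This list holds Ndufa4, named for complex I but known as a subunit of complex IV, and without it 30 were tested, 24 did not overlap, 12 had an unadjusted p under 0.05, DESeq2 called 3 and the median was 0.42. Of 31 assembly factors of complexes II to V tested, 27 were above 0 and 4 below, with 17 above without overlap, 4 higher at an unadjusted p under 0.05 and a median of 0.24. The highest of these were Sdhaf3, an assembly factor of complex II, at 0.94 (5.79 and 5.89 CPM in vehicle-treated and 13.3 and 9.10 CPM in cisplatin-treated libraries) and Uqcc2, one of complex III, at 0.90 (16.8 and 25.8 against 39.0 and 40.6 CPM). The inhibitor and supercomplex factors beside the member Cox7a2l were 3, all above without overlap, with a median of 0.35. The ATP synthase inhibitor Atpif1 stood at 0.35, with 165 and 122 against 184 and 181 CPM. Ndufa4 is not among the members by name, and at 123 and 142 CPM against 302 and 259 CPM it was higher in both cisplatin-treated libraries (log2 fold change 1.08, SE 0.21, edgeR's adjusted p = 0.509 and DESeq2's 0.00829, called by DESeq2).

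The partners encoded in mitochondrial DNA had larger and less even values. Of the 6 of complexes III to V, 5 lay above without overlap, against 20.6% of all genes. At an unadjusted p under 0.05 in edgeR 2 were higher, against 3.74%. The 6 summed to 11411 and 23041 CPM in vehicle-treated and 45273 and 42786 CPM in cisplatin-treated libraries, with a median log2 fold change of 1.46. The gap between the 2 vehicle-treated libraries was about as large as the lower of their values. Mt-co2 had 1708 and 2858 against 6675 and 5772 CPM (1.45, SE 0.56), and Mt-atp8 overlapped at 4.71 and 6.91 against 6.10 and 7.14 CPM (0.19, SE 0.31). Libraries were made from polyadenylated RNA, so that levels of mitochondrial and nuclear transcripts are not on one footing.

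Tricarboxylic acid cycle enzymes were divided. Of 14 tested, 10 were above 0 and 4 below, with a median of 0.24. At an unadjusted p under 0.05 in edgeR 2 were higher, against 3.74% of all genes, and 1 was lower, against 5.83%. The 3 subunits of the NAD-dependent isocitrate dehydrogenase stood at 0.49 (Idh3a), 0.81 (Idh3B) and 0.60 (Idh3g), without overlap, and Ogdh, of the oxoglutarate dehydrogenase complex, at −0.96 (53.8 and 39.9 CPM in vehicle-treated and 25.5 and 22.7 CPM in cisplatin-treated libraries). Of 12 regulators of respiratory genes, 4 were above 0 and 8 below, with a median of −0.08. At an unadjusted p under 0.05 in edgeR 1 was lower, against 5.83% of all genes. Without overlap 1 lay above and 5 below, against 20.6% and 21.2% of all genes. Nrf1 (log2 fold change 0.14), Gabpa (−0.05) and Tfam (0.04) overlapped between the groups, and Yy1 (−0.36) and the coactivators Ppargc1a (−0.42) and Ppargc1b (−1.39) were lower in both cisplatin-treated libraries. Ppargc1a and Ppargc1b had few counts, with 118 and 73 against 92 and 63 for the first and 50 and 26 against 18 and 13 for the second.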

How the data were processed

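RNA sequencing of pooled lumbar DRGs gave 4 libraries. Per the labels and the study's methods, polyadenylated RNA was read in pairs of 150 bases, mapped to Rnor_6.0 with HISAT2 2.0.5 and assembled with StringTie 1.3.3b, and the submitters' processing notes name featureCounts 1.5.0-p3. The authors deposited raw counts per gene, not normalised, and FPKM values, which equal the count over gene length and a constant per library. The strand setting and the treatment of reads that fit several places are not given in the sources used here, so overlapping and near-identical genes are uncertain. Groups and numbers come from the labels. Nothing beyond separate rats is stated, and p-values measure the spread between these 4 libraries only.

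Of 22293 protein-coding genes, filterByExpr kept 14719. Counts were scaled with TMM (factors 1.10, 0.941, 1.03 and 0.938) and compared with edgeR 4.0.16 in R 4.3.3 (glmQLFit, glmQLFTest, two-sided, all 4 libraries, no block), with Benjamini-Hochberg adjustment over all genes tested and calls at an adjusted p under 0.05 and a fold of at least 1.5. Standard errors derive from the fold change and the F statistic. Alternatives were DESeq2 1.42.0, limma 3.58.1 on log2(FPKM + 1) and log2(FPKM + 0.1), size factors of DESeq2, no scaling beyond library size, all biotypes, no filter or a minimum of 10 counts in every library, the replicate number as a block, a lowess offset on gene length (span 0.3), counts summed over near-identical rows and leaving out each library. A level of 3 counts was 0.118 to 0.152 CPM across libraries, and it covers counting error only.

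The members, gene lists and tests were chosen with earlier results of these data known. Genes were named with values in each library if they had the smallest 2 p-values or the highest 2 mean FPKM in their complex, a log2 fold change below 0, or a place in an isoform set, and all of complex II, Cyc1 and Cycs were; other members and list genes were named after their values were seen, to account for every member. Near-identical rows were found by protein name: 21 members had one, in 15 it held counts, and 7 members held under 95% of the sum. The tests were tested on simulated data. No genome of the files' build was used here.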

Additional observations from a re-analysis of the deposited data

How the results depend on the processing

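No member was called by edgeR under DESeq2's size factors, library size alone, either filter, all biotypes, the length offset, summed copies, limma on FPKM or without any 1 library. DESeq2 called 2. Same-numbered libraries are different rats and share only a number in the labels. In the names of the deposited columns the cisplatin-treated libraries carry other numbers, so a block rests on the labels' numbering alone. Deviations of same-numbered libraries from the group means correlated at r = 0.444 and rho = 0.567 over 14719 genes. With 2 libraries a group, the sign of this correlation depends on which library is numbered 1. A block on the replicate number gave 16 calls by edgeR among the members, 14 higher and 2 lower, against 3.59% and 7.72% of all genes. The 2 lower were Cox6a2, which was high in vehicle-treated library 1 alone, and Atp5f1 (copy 1). Block and length offset together gave 7 calls, 5 higher and 2 lower, against 1.96% and 5.73%. The lower were the same 2 genes. The higher included Atp5c1 at 0.71, against 0.39 in the main fit, whose merged model of 7359 bases makes its offset uncertain. DESeq2 with the block, chosen after seeing the data, gave 15 calls, 14 higher and 1 lower, against 2.55% and 4.82%. The length offset moved the medians to 0.064 (complex II), 0.33 (III), 0.24 (cytochrome c), 0.30 (IV), 0.15 (V) and 0.22 (all members), and with the block too to 0.068, 0.32, 0.24, 0.30, 0.16 and 0.22. Without each library in turn, the medians ranged from 0.21 to 0.33 (II), 0.35 to 0.67 (III), 0.38 to 0.63 (cytochrome c), 0.52 to 0.62 (IV), 0.27 to 0.49 (V) and 0.35 to 0.57 (all members). The members without overlap and higher then numbered 37 to 43, against 31.9% to 37.7% of all genes. Those without overlap and lower numbered 1 to 6, against 33.3% to 38.9%. Separation is easier to reach with 1 library left out, since the share higher was 20.6% of all genes with all 4. The length offset left 36 of 47 members above 0 in place of 43, with 12 of 18 in complex V in place of 16 and 2 of 4 in complex II in place of 3; the members not named by the rule that went below 0 were Uqcrfs1, Cox6c, Atp5h, Atp5i and Atp5s. Over 17 settings, 6 of the 29 named members tested changed sign. Sdhc went to −0.11 with the length offset, with and without the block, and Atp5g3 to −0.048 and, with the block, −0.037. Without 1 library in turn Sdhc ranged from −0.080 to 0.24, with −0.046 without cisplatin-treated library 2, Sdha from −0.22 to 0.18, with 0.14 without cisplatin-treated library 2, Cox6a2 from −3.85 to 2.65, Atp5f1 (copy 2) from −0.61 to 0.84 and Atp5a1 from −0.37 to 0.18. The cause was not tested. Depth limits Cox6a2, Cox8b, Cox4i2, Cox6b2 and the second Atp5f1 row, which held under 130 counts in every library.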
